A study of Mus musculus with 13 samples.

Results

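The resistin family of the mouse has 4 members, resistin (Retn) and the resistin-like molecules alpha (Retnla), beta (Retnlb) and gamma (Retnlg). All 4 were measured in epididymal white fat by microarray. They were found as the probe sets annotated to exactly 1 of these symbols, taking the brightest for each gene. Every member had 1 such probe set, and no probe set named a member together with another gene, so the family is 4 of the 18818 genes measured.

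Resistin family proteins are small, cysteine-rich secreted proteins. In mice resistin is an adipocyte hormone whose gene is driven by C/EBPα and PPARγ, regulators of the fat cell. RELMα, the product of Retnla (also called FIZZ1), is made by macrophages exposed to IL-4 or IL-13 through the transcription factor STAT6 and is a standard marker of alternative macrophage activation. RELMβ comes from goblet cells of the gut, and the gamma member is best known from bone marrow and neutrophils.

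The tissue came from male mice of 6.5 weeks on the C57Bl/6J background. Wild type mice and mice of the CD1d knockout strain B6.129S6-Cd1d1/Cd1d2tm1spb/J all ate a high fat diet for 4 days, so no group on another diet is part of the comparison. On days 0 and 2 they received α-galactosylceramide (αGalCer) at 100 ng per g of body weight, or its vehicle pyridine, into the peritoneal cavity, and tissue was taken on day 4. αGalCer is a glycolipid that activates natural killer T (NKT) cells when CD1d presents it, and mice without CD1d lack these cells. Wild type mice contributed 3 vehicle and 4 αGalCer arrays, and knockout mice 3 and 3. How RNA was divided among the arrays of a group is not stated in the labels, so the spread behind each p-value is that between arrays and may be technical in part. The title of the study links NKT cell activation to macrophage polarization through IL-4 and STAT6, and Retnla is a common readout of that axis.

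Values are log2 expression per probe set as deposited, so a difference of 1 is a doubling. Array medians ran from 5.68 to 5.83. Levels of different genes are not set against each other, because each probe set has its own brightness. A gene is said to rise or fall only where the moderated test of limma gave an adjusted p under 0.05 over all genes, and a change is written with ± its standard error (SE). Cd1d1, which the strain name lists with Cd1d2, lay between 9.08 and 10.86 in the 7 wild type arrays. In the 6 knockout arrays it lay between 2.64 and 4.03, in keeping with the labels. The adipocyte markers Adipoq and Lep were bright in the wild type vehicle arrays, at 12.13 ± 0.14 and 11.69 ± 0.16 (SD, n = 3).

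Single arrays stood apart for genes of other tissues. The mean of 12 epididymis and testis genes reached 5.21 in replicate 3 of the wild type vehicle group and stayed between 3.84 and 4.21 in every other array. The mean of 12 skeletal muscle genes reached 8.15 in 1 knockout vehicle array (replicate 1) and 8.44 in 1 knockout αGalCer array (replicate 3), and spanned 4.82 to 5.76 over the wild type arrays. The mean of 12 genes of ciliated and ductal epithelium ran from 5.33 to 7.92 over the vehicle arrays and from 4.89 to 5.17 over the αGalCer arrays of both genotypes. Where leaving these arrays out ended a call of a member in wild type or moved it by over 1.5 times, both values are given.

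After αGalCer in wild type fat, Retn fell, Retnla and Retnlg rose, and Retnlb stayed within its spread. Of the 4 members 2 rose, where 19.8% of all genes did, and 1 fell, where 22% of all genes did. In the knockout no member passed the test, and neither did any other gene (0% of 18818 called, with 1281 at an unadjusted p under 0.05). Since 41.9% of genes were called in wild type, 3 of 4 members being called is a count from a tissue in which a large share of genes moved, and with 4 members it is not read as a result about the family. Groups did not overlap for 3 of 4 members in wild type, where 46.7% of all genes had none, and for 2 of 4 in knockout, where 13.8% had none.

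**Figure D1:**
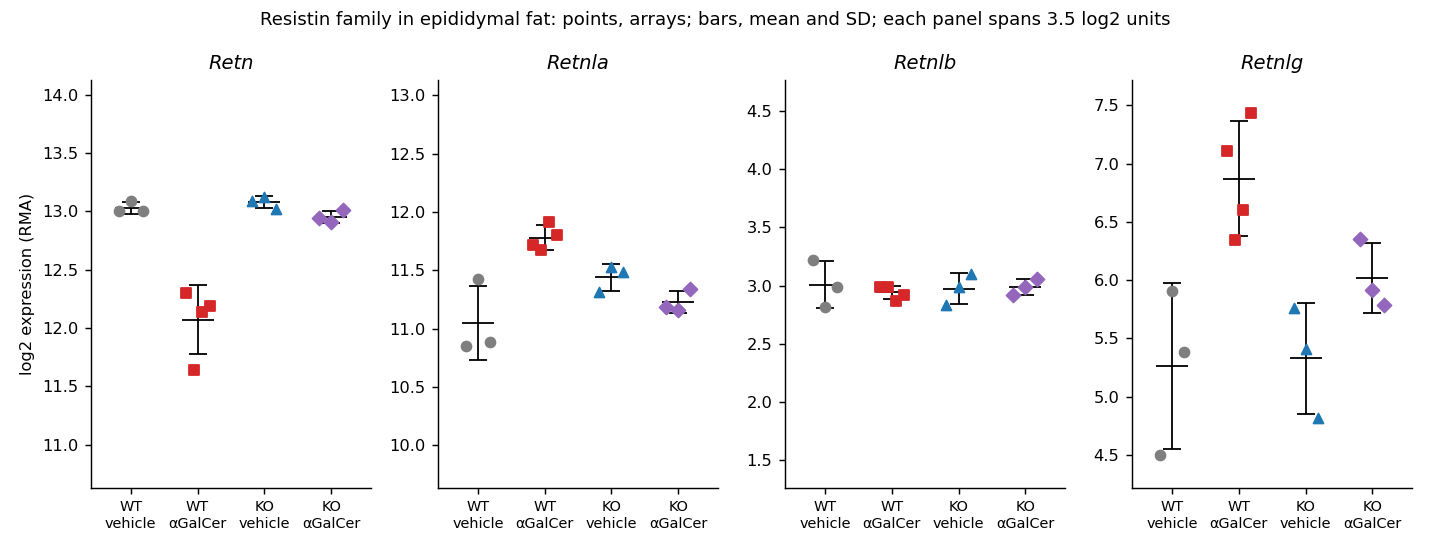
Log2 expression of the 4 family genes in each of the 13 arrays (points), by group, with the group mean and SD (bars). WT is wild type and KO is CD1d knockout. Every panel spans the same 3.5 log2 units. The 4 wild type αGalCer arrays lie below all others for Retn and above all others for Retnla, while Retnlb lies between 2.81 and 3.22 in every array.

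The mean of Retn over the 13 arrays was 12.73, on a scale that ran from 1.53 to 13.84. In wild type fat after vehicle Retn was at 13.001, 13.094 and 13.003, and after αGalCer at 12.30, 11.64, 12.14 and 12.19. The knockout arrays read 13.09, 13.12 and 13.02 after vehicle and 12.94, 12.91 and 13.01 after αGalCer. The 4 wild type αGalCer arrays were thus below every other array, and the other 9 arrays lay within 12.91 to 13.12.

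The group means were 13.03 ± 0.05 (SD, n = 3) and 12.07 ± 0.29 (SD, n = 4) in wild type. Retn fell by 0.97 ± 0.12, a 1.95-fold difference (limma adjusted p = 2.48e-05). Replicate 2 of the wild type αGalCer group was lowest, and without it the fall was 0.82. In the knockout the groups also did not overlap (6.04% of all genes had no overlap with αGalCer lower), but the difference was -0.13 (95% interval -0.40 to 0.15, limma adjusted p = 0.827). The effect in knockout differed from that in wild type by 0.84 ± 0.18 (limma adjusted p = 0.00284). This contrast uses the same arrays as the 2 before it, so it is not a further observation of them. Retn sits near the top of the scale, which ends at 13.84, and whether brightness there compresses its change was not tested.

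All 17 measured adipocyte genes fell in wild type, with a median of -1.28 against -0.02 over all genes. The fall of Retn was smaller than that of 13 of them and larger than that of 4. Pck1, an enzyme that adipocytes use to make glycerol for triglycerides, fell by 3.04 ± 0.29. Slc2a4, the glucose transporter that responds to insulin, fell by 2.65 ± 0.23. Adiponectin (Adipoq) fell by 1.504 ± 0.24 and leptin (Lep) by 1.83 ± 0.22. The mean of the list ran from 11.94 to 12.06 in wild type after vehicle and from 10.10 to 10.85 after αGalCer, and it was lowest, like Retn, in replicate 2. In whole tissue, fewer adipocytes, less RNA per adipocyte and a smaller adipocyte share through more RNA from other cells cannot be told apart. Which of them lowered these genes was not tested.

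Other hormones and proteins that fat secretes did not all follow. Of 13 measured, 7 fell and 2 rose, with a median of -1.18. The retinol carrier Rbp4 (-2.23 ± 0.20) and angiotensinogen (Agt, -1.91 ± 0.31) fell most. Complement factor B (Cfb) rose by 0.73 ± 0.15, a call that 1 of 25 alternative analyses lost. Nampt, an NAD-synthesis enzyme also called visfatin, rose by 0.33 ± 0.12, a call lost in 12 of the 25.

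Among 10 regulators of Retn transcription in fat, 6 fell and 2 rose, with a median of -0.98. Cebpa, which encodes C/EBPα, fell by 1.29 ± 0.12 and Pparg, which encodes PPARγ, by 1.03 ± 0.10. Foxo1, a transcription factor that insulin restrains, fell by 1.60 ± 0.12. Those that rose, Cebpb (1.204 ± 0.14) and Irf4 (1.21 ± 0.21), encode factors that macrophages use as well. None of the 10 was called in the knockout.

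Over the 13 arrays the patterns nearest to that of Retn, after centring every gene on its own mean, were those of Phyh, Cavin3, Nnmt, Plin1 and Pcca. Their root-mean-square difference from Retn ranged from 0.06 to 0.09 log2 units. They were picked for closeness to Retn, so their similar changes follow from the choice. This also holds for the nearest patterns of Retnla and Retnlg. Plin1, itself one of the listed adipocyte genes, encodes the coat protein perilipin of the lipid droplet and had a change of -0.97 ± 0.10. Cavin3 encodes a coat protein of caveolae and had -1.07 ± 0.12.

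Retn lies on chromosome 8. Of the 3 genes on either side of it in RefSeq order, 3 were measured. Its direct neighbours went the other way: Stxbp2, a gene of granule secretion, rose by 0.88 ± 0.12, and the mast cell and myeloid gene Mcemp1 by 0.77 ± 0.20. Pcp2 changed by -0.06 ± 0.09 (limma adjusted p = 0.662). The call of Mcemp1 was lost when the vehicle arrays highest in ductal epithelium were left out, and that of Stxbp2 was kept in all 25 alternatives.

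The mean of Retnla over the 13 arrays was 11.41. After vehicle the wild type arrays read 10.85, 11.42 and 10.89, and after αGalCer 11.72, 11.67, 11.92 and 11.80. In the knockout they read 11.31, 11.53 and 11.48 after vehicle and 11.19, 11.16 and 11.34 after αGalCer. Each wild type αGalCer array was above every array of the other groups, and replicate 2 of the wild type vehicle group was higher than its 2 companions by over 0.5.

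The group means were 11.05 ± 0.32 (SD, n = 3) and 11.78 ± 0.11 (SD, n = 4) in wild type. Retnla rose by 0.72 ± 0.12, or 1.65-fold (limma adjusted p = 0.000344). In knockout fat the difference was -0.21 ± 0.13 (95% interval -0.50 to 0.07, limma adjusted p = 0.773), with overlapping groups. The effects of αGalCer in the 2 genotypes differed by -0.94 ± 0.18 (limma adjusted p = 0.00164), a larger figure than the wild type rise because the knockout value lay on the other side of 0. For this contrast 28.2% of all genes were called, 14.3% with a higher and 13.9% with a lower value in knockout, and of the family Retn (higher) and Retnla (lower).

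The size of the Retnla rise rested in part on vehicle arrays 1 and 3 of wild type. These held the most ductal epithelium signal of their group (list means 7.06 and 7.32, against 5.86 in replicate 2) and the least Retnla. With those 2 and knockout vehicle replicate 1 left out, a choice made after the data were seen, Retnla rose by 0.36 ± 0.11 (limma adjusted p = 0.0257). The single wild type vehicle array that remained was assumed to vary like the other groups. In the knockout, vehicle replicate 1 also held the most epithelium signal of its group (7.92) and the least Retnla (11.31). The knockout αGalCer arrays had epithelium list means of 4.98 to 5.06. Their Retnla ran from 11.16 to 11.34, and that of the knockout vehicle arrays from 11.31 to 11.53. Macrophage lists ordered the wild type vehicle arrays as Retnla did. In replicates 1, 3 and 2 the means were 9.24, 9.765 and 9.80 for resident macrophage genes. For genes of alternatively activated macrophages they were 6.69, 7.055 and 7.23. Neutrophil genes were highest in replicate 3 (5.34). The part of epithelium or of macrophage RNA in the result was not tested.

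Among the vehicle arrays, Retnla was 0.39 ± 0.13 higher in knockout than in wild type fat (unadjusted p = 0.0119, limma adjusted p = 0.538), and the groups overlapped. That comparison called 0.112% of all genes (0.0903% higher, 0.0213% lower) and 0 of 4 members. No member's groups were free of overlap, as those of 11.2% of all genes were (7.38% higher, 3.8% lower). Without the same 3 vehicle arrays the difference was 0.09. In order of their means, the Retnla levels were wild type vehicle (11.05), knockout αGalCer (11.23 ± 0.10), knockout vehicle (11.44 ± 0.12) and wild type αGalCer (11.78). Neighbouring groups overlapped along this order except for the last step, where the highest knockout vehicle array (11.53) stayed below the lowest wild type αGalCer array (11.67).

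**Figure D2:**
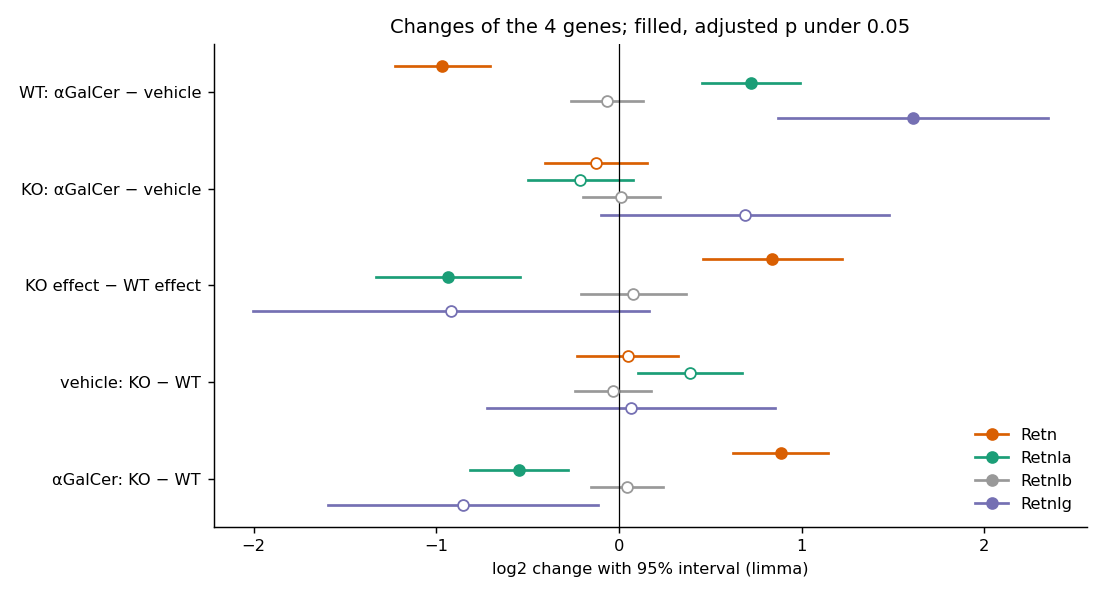
Log2 change of each family gene with its 95% interval in 5 contrasts. WT is wild type and KO is CD1d knockout; filled points have a limma adjusted p under 0.05. Retn and Retnla are filled in 3 contrasts each with opposite signs, Retnlg in 1 and Retnlb in none.

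The Retnla rise was small beside that of other genes of alternatively activated macrophages. Of 19 measured genes of that list 17 rose and 0 fell, with a median of 2.30. Retnla itself was not in the list, and 17 of the 19 had a larger change than it. The chitinase-like gene Chil3 rose by 7.07 ± 0.35, Pdcd1lg2, the checkpoint ligand PD-L2, by 5.51 ± 0.15, arginase (Arg1) by 5.14 ± 0.44 and the mannose receptor Mrc1 by 1.82 ± 0.21. In wild type vehicle arrays Chil3 was at 4.02 ± 0.71 and Arg1 at 7.17 ± 1.16 (SD, n = 3), on their own probe sets, and the part of the starting level in these folds was not tested.

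Of 12 genes of resident macrophages 9 rose and 1 fell, with a median of 1.26. The complement gene C1qa rose by 1.87 ± 0.15 and the lysosomal marker Cd68 by 1.82 ± 0.15. Gas6, a ligand for receptors that clear dead cells, fell by 0.40 ± 0.13, a call that 4 of 25 alternatives lost. Of 8 eosinophil genes 2 rose and 2 fell, with a median of 0.16. The ribonuclease Ear6 (0.47 ± 0.12) and the lectin Siglecf (0.39 ± 0.11) rose, and the lipoxygenase Alox15 (-0.94 ± 0.30) and the IL-5 receptor Il5ra (-0.39 ± 0.11) fell. Ear6 and Il5ra were dim, with means of 4.08 and 3.71 in wild type after vehicle. The changes of all 8 genes lay below that of Retnla.

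**Figure D3:**
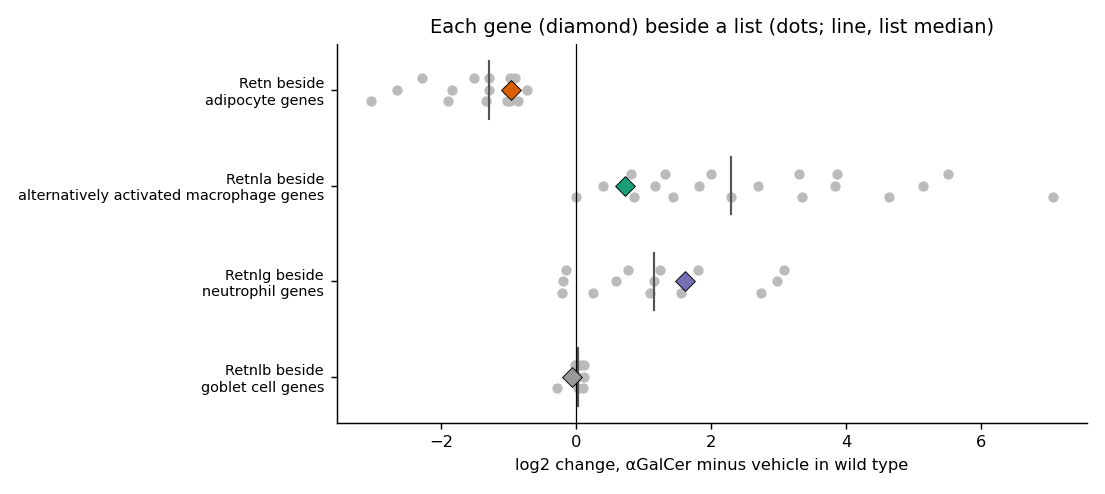
Log2 change after αGalCer in wild type of each family gene (diamond) beside the genes of a list for a cell type known to make it (dots; the line is the list median). Retn lies to the right of its list's median of -1.28, Retnla to the left of 2.30, Retnlg to the right of 1.16, and Retnlb and the goblet cell genes lie near 0.

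Transcripts of the signalling pathway known to induce Retnla were measured in the same arrays, which do not measure its activity. Of 12 measured genes of IL-4, IL-13 and STAT6 signalling 11 rose and 1 fell, with a median of 1.45. Il4 rose by 1.66 ± 0.15 and Il13 by 0.74 ± 0.22, though the call of Il13 was lost in 2 of 25 alternatives. Il4 was dim in wild type, at a mean of 3.77 after vehicle and 5.43 after αGalCer. The shared receptor chain Il4ra rose by 2.22 ± 0.22 and the feedback inhibitor Socs1 by 2.81 ± 0.35. Stat6 rose by only 0.18 ± 0.07, a call lost in 15 of 25 alternatives. Irs2, an adaptor of insulin and IL-4 receptors, fell by 0.58 ± 0.13. None of the 12 passed the test in the knockout.

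Of 10 regulators of Retnla transcription 4 rose and 4 fell, with a median of 0.22. Spi1, the myeloid factor PU.1, rose by 2.41 ± 0.18, and Irf4 and Cebpb rose as given above. Pparg and Kdm6b, a histone demethylase, fell, the latter by 0.50 ± 0.19 in a call that 16 of 25 alternatives lost.

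The promoter of Retnla is shown because STAT6 and C/EBP sites are known to carry its response to IL-4, and that of Retnlg because it is the neighbouring gene that rose too. The sequences are from RefSeq (GRCm38.p6, plus strand), 250 bases up to the annotated start, and 3 of the 4 members matched an entry. Capitals mark matches to TTC and GAA set 4 bases apart (the spacing STAT6 prefers, which reads the same on both strands), TTGCNNAA (a C/EBP core, either strand) and, as the TATA box on either strand, TATAAA.
Retnla, chr16:48842359-48842608: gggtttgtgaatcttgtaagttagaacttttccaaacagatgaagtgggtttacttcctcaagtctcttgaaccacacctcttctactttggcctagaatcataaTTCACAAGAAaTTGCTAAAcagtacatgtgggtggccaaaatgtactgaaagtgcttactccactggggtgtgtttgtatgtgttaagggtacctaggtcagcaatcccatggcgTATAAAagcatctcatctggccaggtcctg
Retnlg, chr16:48872358-48872607: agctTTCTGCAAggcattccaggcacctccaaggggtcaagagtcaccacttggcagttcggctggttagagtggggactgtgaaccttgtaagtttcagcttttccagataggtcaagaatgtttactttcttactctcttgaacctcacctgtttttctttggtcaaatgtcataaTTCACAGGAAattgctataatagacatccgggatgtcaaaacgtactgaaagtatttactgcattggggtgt

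In Retnla the STAT6-type match TTCACAAGAA begins 145 bases before the start, and the C/EBP core TTGCTAAA follows it at 134 bases. A TATA box begins 30 bases before the start. In Retnlg the corresponding letters TTCACAGGAA begin 72 bases before the start, the core after them is not matched, and another core lies at 246 bases. The windows of the 2 genes align over 170 bases, of which 135 (79.4%) are identical. This stretch runs from 245 to 74 bases before the start in Retnla and from 171 to 1 in Retnlg, so the annotated starts are placed differently against the shared sequence. The same window of Retn (chr8:3655520-3655769) held none of the 3 motifs. Among 32536 distinct windows of this length, 5.89% held the STAT6-type spacing, 9.57% the C/EBP core, 0.612% both, and 12.3% the TATA box. These are matches of letters and not measured binding.

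Nearest to Retnla in pattern over the 13 arrays were Zfat, Pnp, Cd74, Brip1os and Ppp1r35, with root-mean-square differences of 0.15 to 0.17 log2 units. Cd74, the invariant chain of MHC class II, had a change of 0.84 ± 0.10. All 5 lay farther from Retnla than Plin1 did from Retn (0.08).

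Retnlg varied more within groups than any other member. After vehicle the wild type arrays read 4.50, 5.91 and 5.38, and after αGalCer 7.11, 6.35, 6.60 and 7.44. The knockout arrays read 5.76, 5.41 and 4.82 after vehicle and 6.36, 5.92 and 5.78 after αGalCer. All 4 wild type αGalCer arrays were above the wild type vehicle arrays, but the highest knockout αGalCer array (6.36) reached the lowest of them (6.35). The residual SD of Retnlg within groups, 0.51, exceeded that of 96.9% of genes.

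The wild type means were 5.26 ± 0.71 (SD, n = 3) and 6.87 ± 0.49 (SD, n = 4). Retnlg rose by 1.61 ± 0.34, or 3.05-fold (limma adjusted p = 0.00181), the largest change in the family on the log2 scale. Without the 3 vehicle arrays highest in ductal epithelium its change was 0.97 ± 0.38 and it was not called. That fit left a single wild type vehicle array, replicate 2, the highest of its group in Retnlg (5.91). Retnlg was called in the other 24 alternatives.

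In knockout fat Retnlg was higher after αGalCer by 0.69 ± 0.36 (95% interval -0.10 to 1.48, limma adjusted p = 0.747), with the lowest αGalCer array just above the highest vehicle array (5.78 and 5.76). The size rested on few arrays: it was 0.43 without knockout vehicle replicate 3, 0.91 without the 3 epithelium arrays and 1.02 without the 2 arrays high in muscle genes, and it was not called in any of the 25 alternatives. Groups without overlap and with αGalCer higher were found for 7.79% of all genes there. The effects in the 2 genotypes differed by -0.92 ± 0.50 (95% interval -2.001 to 0.16, limma adjusted p = 0.213), so a smaller effect in the knockout was not shown. Leaving out the 3 vehicle arrays highest in ductal epithelium left only replicate 2 (5.91) of the wild type vehicle group. Changes were then 0.97 in wild type and 0.91 in knockout. The difference of effects was -0.06 ± 0.49 in that fit. Without the 2 arrays high in muscle genes it was -0.58, and without 1 array at a time it ran from -1.24 to -0.54, the latter without wild type vehicle replicate 1. After αGalCer, knockout fat had 0.85 ± 0.34 less Retnlg than wild type (limma adjusted p = 0.0633). This contrast called 41.1% of all genes (21.9% higher, 19.2% lower) and 2 of the 4 members, Retn (0.89 ± 0.12) and Retnla (-0.55 ± 0.12). The groups of both did not overlap, as for 50.4% of all genes (28% higher, 22.3% lower). For Retnlg it passed the test in 6 of 25 alternatives, among them array weights (-0.95, limma adjusted p = 0.00962).

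Of 15 measured neutrophil genes 10 rose and 0 fell in wild type, with a median of 1.16. The value of Retnlg was above those of 11 of them and below those of 4. The growth factor receptor Csf3r rose by 3.08 ± 0.30 and the collagenase Mmp8 by 2.98 ± 0.29. The calprotectin subunits S100a8 and S100a9, which were picked as examples with their values known, rose by 1.59 ± 0.41 and 1.80 ± 0.45, calls that 1 of 25 alternatives lost. The granule genes Ltf, Camp and Elane, picked in the same way, had values of -0.20, -0.19 and -0.14 and did not pass the test. The mean of the list ran from 5.06 to 5.34 in wild type after vehicle and from 5.89 to 6.86 after αGalCer, with replicates 4 and 1 highest for both the list and Retnlg. In the knockout the list ran from 5.22 to 5.33 after vehicle and from 5.19 to 5.27 after αGalCer. The changes of its 15 genes there (-2.25 to 0.53) all lay below the 0.69 of Retnlg, which was not called. That value was also above those of 99.7% of all genes and of all 10 measured monocyte genes (highest 0.63).

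Of 10 monocyte genes 6 rose and 1 fell, with a median of 1.17. The coagulation factor F10 (3.65 ± 0.29) and the lysosomal gene Plac8 (3.63 ± 0.27) rose most, and Ace, which endothelium also makes, fell by 1.59 ± 0.21. The patterns nearest to Retnlg were those of Lilra6, Cd14, Fcna, Gapt and Anxa8, at root-mean-square differences of 0.28 to 0.35. Cd14, a coreceptor for lipopolysaccharide, had changes of 1.24 ± 0.28 in wild type and 0.32 in knockout.

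**Figure D4:**
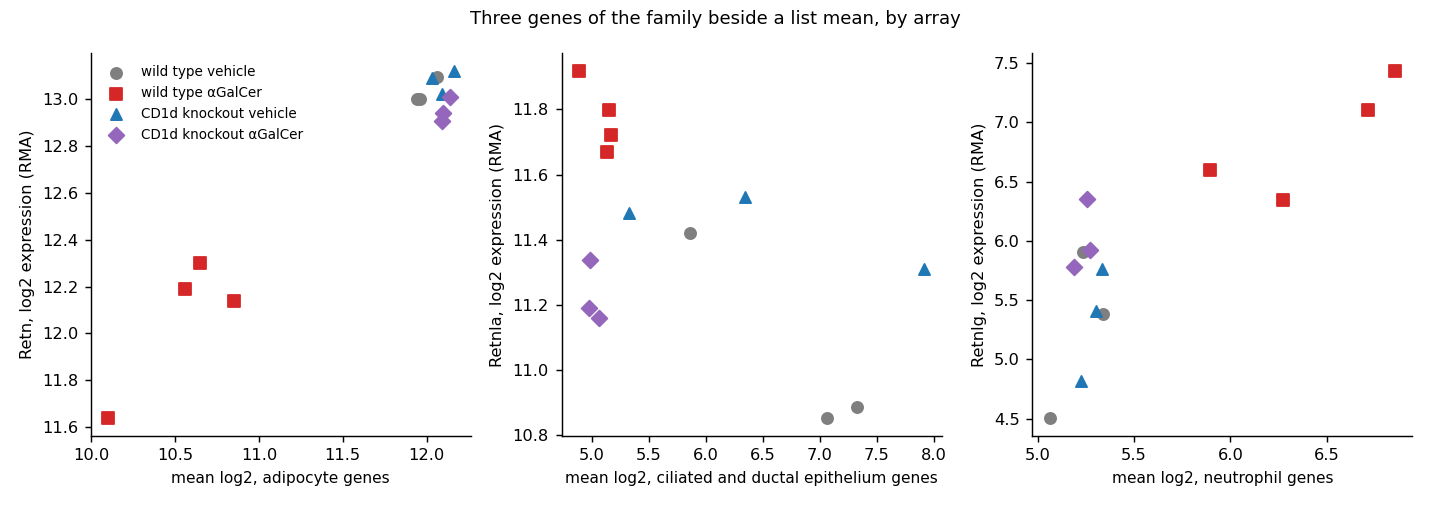
Log2 expression of 3 family genes in each array against the mean log2 level of a gene list in the same array: Retn against 17 adipocyte genes, Retnla against 12 ciliated and ductal epithelium genes, and Retnlg against 15 neutrophil genes. The wild type αGalCer array lowest in Retn (11.64) is lowest in adipocyte genes (10.10). The wild type vehicle arrays lowest in Retnla (10.85 and 10.89) have epithelium means of 7.06 and 7.32. The knockout αGalCer arrays have Retnla of 11.16 to 11.34 at epithelium means of 4.98 to 5.06. They have Retnlg of 5.78 to 6.36 at neutrophil means of 5.19 to 5.27.

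Retnlb was flat, at the low end of the scale with a mean of 2.97. It read 3.22, 2.81 and 2.99 in wild type after vehicle, 2.99, 2.99, 2.87 and 2.92 after αGalCer, 2.83, 2.99 and 3.10 in knockout after vehicle, and 2.92, 2.99 and 3.06 after αGalCer. The deposited value was exactly the same, 2.9894, in 5 of the 13 arrays, spread over all 4 groups.

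The change in wild type was -0.07 ± 0.09 (95% interval -0.26 to 0.13, limma adjusted p = 0.625) and in knockout 0.01 ± 0.10 (95% interval -0.20 to 0.22, limma adjusted p = 0.98). These intervals bound the change in the deposited value, and how the value of so dim a probe set follows its transcript was not tested. Of 9 measured goblet cell genes 0 rose and 0 fell, with a median of 0.03. Muc2, the gel-forming mucin of goblet cells, had the smallest p of them (-0.28 ± 0.12, limma adjusted p = 0.0881), and the list mean stayed between 4.41 and 4.73 over the 13 arrays.

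Retnlb, Retnla and Retnlg follow each other on chromosome 16, and Cd1d1 is on chromosome 3, so no family member shares a chromosome with Cd1d1. The 3 adjacent genes thus gave a flat value, a 1.65-fold and a 3.05-fold rise. Beyond them, Trat1, an adaptor of the T cell receptor, rose by 0.81 ± 0.12, and Cip2a, an inhibitor of the phosphatase PP2A, by 2.22 ± 0.38. Trat1 was dim, at 2.97 in wild type after vehicle and 3.78 after αGalCer. How so dim a value follows its transcript was not tested. Dzip3, between Retnlg and Cip2a, changed by 0.22 ± 0.32 (limma adjusted p = 0.637).

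Transcripts of proteins proposed to bind resistin family members were measured as well. Of 6, 3 rose and 2 fell, with a median of 0.21. Tlr4, the lipopolysaccharide receptor that resistin has been proposed to engage, rose by 1.53 ± 0.28. Cap1, a cyclase-associated protein proposed as a resistin receptor, rose by 0.58 ± 0.06. Btk, a kinase reported to bind RELMα, rose by 2.18 ± 0.17. Decorin (Dcn) fell by 0.97 ± 0.12, and the receptor Ror1 by 0.52 ± 0.16 in a call that 4 of 25 alternatives lost. Cap1 was at 0.58 ± 0.06 in wild type and -0.01 ± 0.06 in knockout.

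Lists for tissue that dissection could add were run in the same contrast. Of 12 epididymis and testis genes 1 fell (Lcn8, -0.35 ± 0.10), and of 12 skeletal muscle genes 0 were called (Actn3 had the smallest p, -0.73 ± 0.69). Of 12 ciliated and ductal epithelium genes 8 fell in wild type, with a median of -1.42. In knockout 0 of the 12 were called, with a median of -1.60. The protease Mmp7 fell by 3.87 ± 0.79 and Dcdc2a, a microtubule-binding protein, by 3.48 ± 0.69. Of 9 mesothelium genes 3 fell, among them Krt8 (-1.40 ± 0.48), a call lost in 5 of 25 alternatives, and Gpm6a (-1.32 ± 0.29). Retn kept its fall without the 3 vehicle arrays highest in epithelium (-1.03 ± 0.19, limma adjusted p = 0.0022).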

How the data were processed

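RNA from epididymal fat of 13 samples was hybridised to Affymetrix gene arrays, with 100 ng of RNA per array and an RNA integrity number above 8.0, per the labels' protocols. The authors deposited log2 expression values per probe set, made with RMA per the submitters' processing notes. The sources used here do not name the software version, chip description file or genome build behind them. Precision is limited by the number of arrays.

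Of 35556 probe sets, 21218 had 1 symbol in the platform annotation, 1881 several and 12457 none. Current symbols came from the RefSeq table of GRCm38.p6 by Entrez identifier (21185 matched, 3 through an accession, and 30 kept the old symbol). Where a gene had several probe sets (1388 genes), the one with the highest mean stood for it.

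All 13 arrays entered 1 model of the 4 group means, fitted with limma 3.58.1 under R 4.3.3, with 9 residual degrees of freedom and eBayes moderation along an intensity trend. There were 5 contrasts. Tests were two-sided and adjusted by the Benjamini-Hochberg method over 18818 genes. The model was tested on simulated data. Replicate numbers are not a known pairing, and no block was used. Deviations from group means correlated at -0.20 to 0.48 (median 0.02) between same-numbered arrays of different groups. Between other-numbered arrays they correlated at -0.57 to 0.46 (median 0.02). With so few arrays per group this cannot show that no pairing exists. The alternatives were 25 in wild type, 1 of them added after the data were seen. They cover the variance model, weights, samples, normalisation, dim genes, probe sets, the replicate block and left-out arrays.

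The members and the 16 gene lists were chosen with earlier results of these data known. The rule named the 4 members and 15 genes whatever their p. From each list it took up to 2 rising and 2 falling called genes in wild type, or the smallest p where none was called. It added the 5 nearest patterns of each called member and, where measured, the 3 genes on either side of each member. Promoter windows were aligned with Biopython (version 1.88).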

Additional observations from a re-analysis of the deposited data

Results flagged for a closer look

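For 2 of the 4 members the effect of αGalCer differed between the genotypes by the test of the difference itself (knockout effect minus wild type effect, limma). This test called 28.2% of all genes (14.3% higher, 13.9% lower), so the count is not read as a result about the family. In wild type 46.7% of all genes had groups without overlap (25% lower, 21.7% higher). For Retn the difference was 0.84 (limma adjusted p = 0.00284), with all 4 wild type αGalCer arrays below all 3 vehicle arrays. For Retnla it was -0.94 (limma adjusted p = 0.00164), with all 4 wild type αGalCer arrays above all 3 vehicle arrays. Both kept their call in all 24 alternatives in which the difference could be fitted.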

How the results depend on the processing

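In wild type the fall of Retn ranged from -1.04 to -0.82 and the rise of Retnla from 0.36 to 0.91 over 25 alternatives, with every call kept. Not all of these could move the 2 estimates. Those that left out only knockout arrays, or changed only the variance model, the probe sets or the dim genes, could not. The 0.36 came from the fit that left 1 wild type vehicle array. With the replicate block, where the numbers are not a known pairing, the wild type changes were -1.01 for Retn, 0.72 for Retnla and 1.42 for Retnlg, and no call of a member changed. Leaving out the 3 vehicle arrays highest in ductal epithelium, an alternative added after seeing the data, took Retnlg in wild type to 0.97 (not called) and turned the sign of values that were not called: Retnlb in wild type (0.13), in knockout (-0.057), in the difference of effects (-0.19) and after vehicle (0.23), and after vehicle also Retn (-0.021) and Retnlg (-0.79). Leaving out the 2 arrays high in muscle genes turned Retnlb in knockout (-0.091), in the difference (-0.0256) and after vehicle (0.037), and Retnlg after vehicle (-0.15). Array weights turned Retnlb in knockout (-0.0161) and after vehicle (0.043) and Retnlg after vehicle (-0.11), and quantile normalisation (-0.0162) and median centring (-0.011) turned Retnlb in knockout. For these the cause was not tested. Knockout minus wild type after αGalCer for Retnlg was called with array weights (-0.95), with only the arrays compared (-0.85) and without the 3 epithelium arrays (-0.85). Leaving out 1 array at a time it ran from -1.03 to -0.66, and was called without wild type vehicle replicate 1 or 2 or without wild type αGalCer replicate 2. Leaving out 1 array at a time, Retnlb ran from -0.16 to 0.041 in wild type, -0.057 to 0.075 in knockout, -0.028 to 0.18 in the difference and -0.13 to 0.074 after vehicle, and Retnlg after vehicle from -0.31 to 0.39. The count of all genes called in knockout, 0, was 322 with array weights, 1 without the 3 epithelium arrays and 0 to 2 leaving out 1 array (2 without knockout vehicle replicate 3). After vehicle the count of 21 was 169 with array weights, 4 with only the arrays compared, 4 without the 3 epithelium arrays and 11 to 35 leaving out 1 array (11 without wild type vehicle replicate 3, 35 without wild type αGalCer replicate 2). With dim genes left out Retnlb was not tested.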
